A study of Homo sapiens with 10 samples.

Results

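The regions described are the ANRIL peaks kept on chromosomes 2, 3, 4, 7, 8, 11, 13 and 14, large human chromosomes that are poor in such peaks. They were chosen by chromosome name, because each of the 8 chromosomes held less than 0.61 times the peaks that its share of hg19 length would give. They number 390 of the 3227 intervals in the list. The choice rests on the peak counts themselves, so counts and densities are given as descriptions, with no test. The same holds for fold, score and width, which come from the same contrast and the same list.

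ANRIL is a long non-coding RNA transcribed from chromosome 9, antisense to the neighbouring cell cycle inhibitor gene CDKN2B. It is known for binding Polycomb repressive complexes, and for acting both on its neighbouring genes and on genes elsewhere in the genome, which is called acting in trans. The series asked where ANRIL contacts chromatin, using chromatin isolation by RNA purification followed by sequencing (ChIRP-seq). In this assay, biotin-tagged antisense oligos capture the RNA from crosslinked, sonicated chromatin together with the DNA it lies on. A peak is a stretch of DNA recovered more with the ANRIL oligos than with the control oligos.

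The cells were HEK293, an established line from human embryonic kidney, with no other treatment or genotype in the labels. ANRIL oligos were used on 4 samples (2 replicates, each with an odd and an even pool), LacZ oligos (against a bacterial gene that the cells lack) on 4 samples in the same layout, and 2 samples were input chromatin. Per the labels, reads were paired-end, 43 bp long, at 45 M per sample. The list holds the peaks left by intersecting both replicates, without read counts, and gives 1 set of values per peak. The spread between replicates therefore cannot be given. Whether these values and the peak numbers come from 1 replicate or from both is not stated in the sources used here. The fold (ANRIL over LacZ), the score (10 times the −log10 q, rounded down) and the p and q behind them are the authors' own values. Positions are in hg19 and count from 1. The genes and sequences at these positions were not analysed here.

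The 8 chromosomes make up 41.8% of the genome's length and held 12.1% of the peaks (exact 95% binomial interval 10.98 to 13.26%, which covers the counting of peaks only). That is 0.289 times their share, or 0.301 peaks per Mb, against 1.58 per Mb on the other 16 chromosomes (1.27 without X). The 8 fell into separate levels. Chromosomes 2, 7 and 11 held 153, 101 and 69 peaks, at 0.604, 0.609 and 0.490 times their share. Chromosome 3 held 40 peaks, at 0.194 times. Chromosomes 4, 8, 13 and 14 held 10, 8, 5 and 4 peaks, at 0.0502, 0.0524, 0.0416 and 0.0357 times. These last 4 chromosomes had 27 peaks on 18.1% of the genome, so their peaks were far sparser than those of chromosomes 2, 7 and 11.

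**Figure D1:**
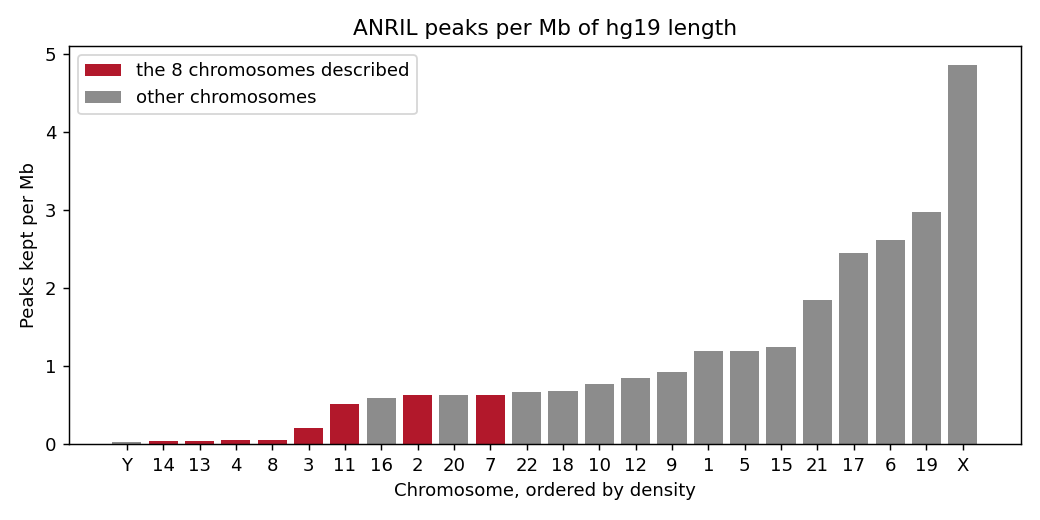
Peaks kept per Mb of hg19 length (vertical axis) for each of the 24 chromosomes, ordered by density, with the 8 described in red. Chromosomes 4, 8, 13 and 14 stand at 0.0373 to 0.0547 peaks per Mb, chromosome 3 at 0.202, chromosomes 2 and 7 at 0.629 and 0.635, and chromosome X at 4.86.

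The limit of 0.61 lies in a continuous run of values. Just inside it were chromosomes 7 (0.609) and 2 (0.604), and the nearest above it were chromosomes 22 (0.636) and 18 (0.651). Chromosomes 20 (0.609) and 16 (0.563), which are small, and Y (0.0323) also lay below the limit and are not among the 8. Chromosome X lowers the share of every other chromosome. Without it, chromosomes 2 and 7 stood at 0.748 and 0.755 times their share, and the 8 together at 0.358 times.

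The peak names carry running numbers in genome order, which show how many peaks had been called before the score filter, the intersection of replicates and any other filter. A lower limit for a chromosome is the span from its lowest to its highest number, and an upper limit is the span left free by its neighbours. Both take each number as 1 called peak. The 8 chromosomes had 9456 to 10291 called peaks, or 7.30 to 7.94 per Mb, against 25.6 to 26.1 per Mb on the other chromosomes. The low density was thus already there among called peaks, with a contrast of 3.23 to 3.58 times, and it was 5.23 times among kept peaks. Against the other chromosomes without X, the contrast was 2.81 to 3.12 times among called peaks and 4.21 times among kept peaks. Of the called peaks, 3.79 to 4.12% were kept on the 8 chromosomes, 5.998 to 6.105% on the others and 5.53 to 5.64% on the others without X.

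Chromosomes 2, 7 and 11 had 15.5 to 15.7, 14.5 to 14.9 and 13.18 to 13.98 called peaks per Mb. On chromosome 3 there were 3.49 to 4.35 per Mb. Chromosomes 4, 8, 13 and 14 had 1.88 to 2.36, 1.76 to 2.37, 0.972 to 2.19 and 1.56 to 2.75 per Mb, and these ranges overlap. The called peaks therefore showed the same levels as the kept ones. The kept share was 1.36 to 2.40% on chromosome 14, 2.22 to 2.78% on chromosome 4, 2.31 to 3.11% on chromosome 8 and 1.98 to 4.46% on chromosome 13, whose wide limits overlap with those of most of the others. It was 3.65 to 3.88% on chromosome 11, 3.99 to 4.05% on chromosome 2, 4.27 to 4.37% on chromosome 7 and 4.65 to 5.78% on chromosome 3. Outside the 8, chromosome 18 kept 3.43 to 3.55% of its called peaks and chromosome 19 kept 9.65 to 10.02%. Chromosomes 5, 9, 10, 12 and 22 lay between 4.38 and 5.01%, in the range of chromosomes 2, 3 and 7.

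**Figure D2:**
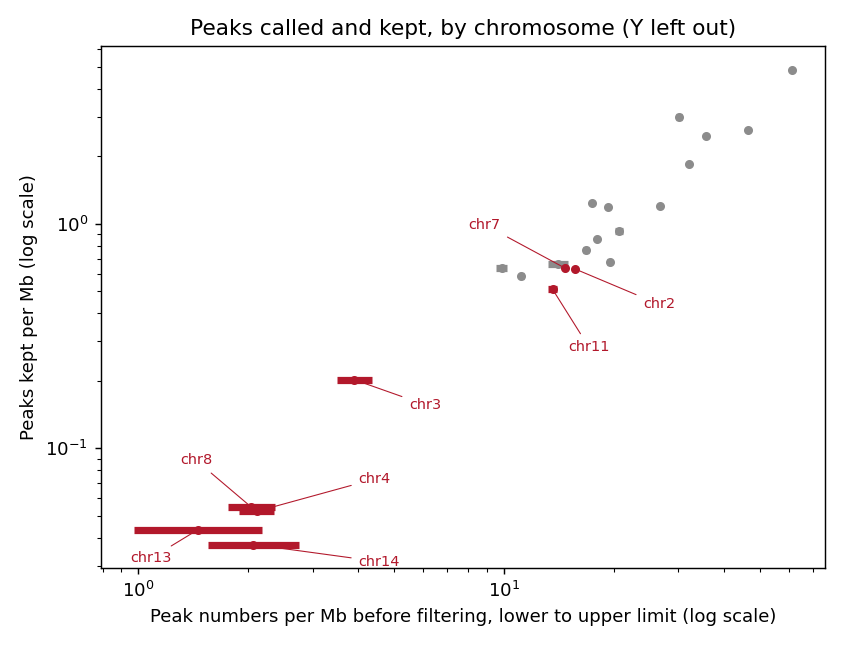
Peaks kept per Mb (vertical, log scale) against peak numbers per Mb before filtering (horizontal, log scale), for 23 chromosomes without Y. Bars run from the lower to the upper limit on called peaks, points mark their geometric mean, and red marks the 8 chromosomes. Chromosomes 4, 8, 13 and 14 stand apart at 0.972 to 2.75 called peaks per Mb, and chromosome 3 lies between them and the rest.

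Every peak of the 4 sparsest chromosomes can be given. Chromosome 14 had 4, the fewest of the 8. They lay at positions 45460543 to 45460978 (fold 3.38, score 17), 50971525 to 50971714 (fold 4.42, score 33), 61397602 to 61397855 (fold 3.81, score 23) and 107193142 to 107193531 (fold 3.49, score 23). The second had the highest fold on this chromosome, and ranked 172nd by fold in the whole list. The last lay 156 kb from the chromosome's end, after 45.8 Mb without a kept peak. Within those 45.8 Mb, 118 peaks had been called and not kept.

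Chromosome 13 had 5 peaks. The first lay at 24002837 to 24003056 (fold 3.79, score 22). The next was 41.6 Mb further, at 65570893 to 65571191 (fold 3.37, score 16), the lowest fold and score of the 5. The others followed at 70108760 to 70108986 (fold 3.76, score 21), 72622648 to 72623249 (fold 3.41, score 17) and 75167003 to 75167262 (fold 3.67, score 20). The last 4 peaks thus lay within 10 Mb of each other, and no kept peak followed up to the chromosome's end. None of the 5 reached a score of 30.

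Chromosome 8 had 8 peaks, none within 2302 kb of another. They began at 5881698 to 5881774 (fold 3.79, score 22, only 77 bp wide) and 8184217 to 8184482 (fold 3.90, score 25). Through the middle of the chromosome they lay at 35003305 to 35003589 (fold 3.33, score 16), 59581028 to 59581278 (fold 3.49, score 17), 69669301 to 69669541 (fold 4.05, score 27) and 86379252 to 86379479 (fold 3.92, score 24). The last were at 112812724 to 112812993 (fold 4.39, score 32) and 116576251 to 116576547 (fold 3.56, score 19), with 29.8 Mb and no peak beyond. Their median fold of 3.85 was the highest median among the 24 chromosomes, and it rests on 8 values. All 8 were narrow, from 77 to 297 bp.

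Chromosome 4 had 10 peaks in a different arrangement. Of these, 7 were scattered between 18749432 and 121741335, and 3 lay together near the end of the long arm. The 7 had, along the chromosome, folds of 3.53, 3.75, 4.23, 3.51, 3.73, 3.55 and 3.92, with scores of 19, 21, 30, 18, 21, 18 and 24. The strongest of them, at 35893644 to 35893886 (fold 4.23), was 251 kb from its neighbour at 35642163 to 35642387 (fold 3.75), and these had consecutive peak numbers. Between the 7 and the 3 lay 68.9 Mb without a kept peak, the longest such stretch on the 8 chromosomes. In it, 152 called peaks had not been kept, or 2.21 per Mb, near the chromosome's own 1.88 to 2.36 called per Mb.

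The 3 peaks near the end of chromosome 4 spanned 84.4 kb, from 190594178 to 190678624, and ended 476 kb from the chromosome's end. Their folds of 2.85, 3.04 and 3.13 were all below those of the 7 scattered peaks, so the groups do not overlap. Their widths ran from 52 to 1508 bp, and the last of them was the widest of all 390 peaks. The peak numbers in this stretch ran from 28563 to 28575, so 13 peaks had been called there and 10 were not kept. The coverage expected at them, estimated from their fold and p by formulas given further on, was 3.56 to 4.65 reads, against 2.08 to 2.20 at the 7 others.

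Chromosome 3 had a sharp change along its length. The first 21 Mb held 24 of its 40 peaks, a boundary set after the positions were seen. That is 1.14 per Mb, against 0.0904 per Mb over the other 177 Mb. Split at this same boundary, called peaks ran at 17.2 to 23.5 per Mb before it and 1.57 to 2.37 per Mb after it. The 53 called peaks not kept between 20.3 and 35.8 Mb have no position of their own. Where within that stretch the called density changed therefore cannot be told. The kept share was 4.86 to 6.65% before and 3.81 to 5.76% after, and these ranges overlap. So the start of chromosome 3 had a called density above the whole-chromosome values of chromosomes 2, 7 and 11. Single windows of those were similar. From first to last kept peak, the first 20 Mb of chromosome 3 spanned 341 peak numbers. Windows of 20 Mb spanned up to 311 on chromosome 2, 344 on chromosome 7 and 336 on chromosome 11. The called density of the rest of chromosome 3 lay within the limits of chromosomes 4, 8, 13 and 14. Among kept peaks the rest of chromosome 3 was denser than those 4, at 0.0904 against 0.0373 to 0.0547 per Mb.

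The peaks in the first 21 Mb of chromosome 3 were not stronger. Their median fold was 3.57 (range 3.27 to 4.58), against 3.73 (3.01 to 4.37) beyond, and their median score was 19.5 against 22.5. They were wider, at a median of 332 bp against 246 bp. The last of the dense part, at 20262514 to 20263127, had the highest score (40), the highest fold (4.58) and the largest width (614 bp) of the chromosome. After it came 15.6 Mb without a kept peak. A further 6 stretches of over 10 Mb between kept peaks followed, the longest of 19.4 Mb from 75.8 to 95.2 Mb, in which 28 called peaks had not been kept. Beyond the last peak, 32.5 Mb up to the chromosome's end held none. The next highest scores were at 3073715 to 3074016 (fold 4.41, score 34) and at 97441706 to 97441913 (fold 4.37, score 32).

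On chromosomes 2, 7 and 11 the peaks ran along the whole length. In windows of 20 Mb, chromosome 2 held 8 to 18 peaks in each full window, chromosome 7 held 4 to 17 and chromosome 11 held 5 to 18. The longest stretch without a kept peak was 7.07 Mb on chromosome 2 (from 91.8 to 98.9 Mb), 11.6 Mb on chromosome 11 (from 46.2 to 57.9 Mb) and 21.3 Mb on chromosome 7 (from 54.6 to 76.0 Mb). These stretches held 28, 58 and 110 called peaks that were not kept, or 3.96, 4.98 and 5.16 per Mb, below the called density of each chromosome. Assembly gaps at centromeres count as length here and were not checked. The last peak of chromosome 7 ended 14.5 kb from the chromosome's end.

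Most peaks stood alone. Between neighbouring peaks of the 8 chromosomes, 34 of 382 distances (8.90%) were 100 kb or less. The share was 30.6% on the other chromosomes and 24.4% on those without X. A sparser chromosome has fewer short distances by its density alone. The median distance was 835 kb on chromosome 7, 1097 kb on chromosome 2, 1157 kb on chromosome 11 and 1327 kb on chromosome 3. It was 3541 kb on chromosome 13 and above 10 Mb on chromosomes 4, 8 and 14. Of all distances over 10 Mb between kept peaks in the list, 22 lay on these 8 chromosomes and 5 on the other 16.

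**Figure D3:**
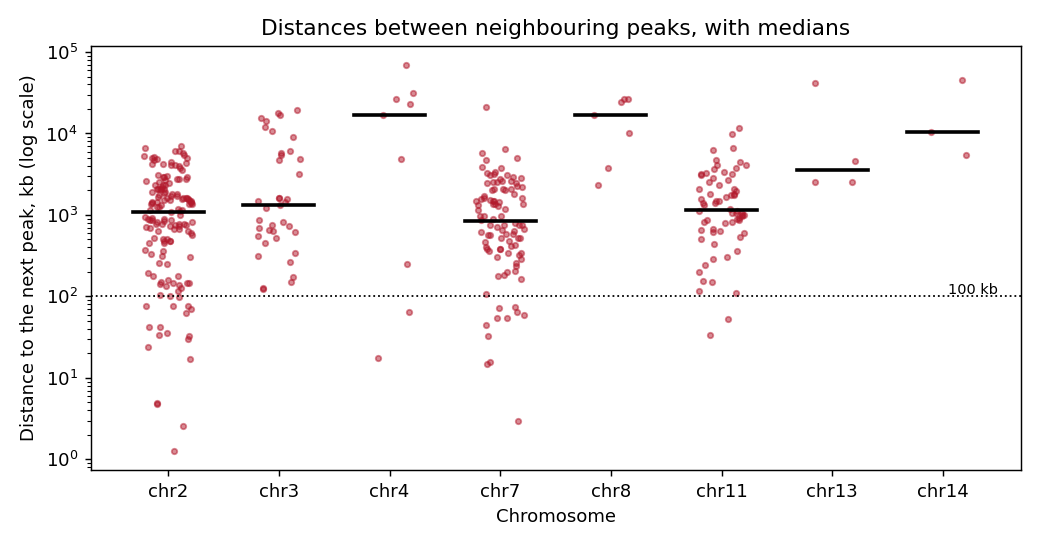
Distance from each peak to the next on the same chromosome (vertical axis, kb, log scale), with 1 point per pair of neighbours and a bar at each median. The dotted line marks 100 kb. Points below it occur on chromosomes 2, 4, 7 and 11 only, and 19 of the 34 are on chromosome 2.

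Chaining peaks at most 100 kb apart gave 6 groups of 3 or more on the 8 chromosomes, with 19 peaks in all (4.87% of 390). On the other chromosomes 25.6% of peaks (726) lay in such groups, and 358 of those were on chromosome X. Besides the one near the end of chromosome 4, there were 3 groups on chromosome 2 and 2 on chromosome 7. On chromosome 7, 3 peaks with consecutive numbers lay between 128981099 and 129030029, with folds of 3.75, 4.26 and 3.80. The other 3 lay between 87622951 and 87743769, with folds of 3.90, 3.78 and 3.98, and the middle one was 42 bp wide. Both groups had folds above the median of the chromosome, 3.70.

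On chromosome 2, the group from 15039826 to 15081480 held 3 peaks with consecutive numbers and folds of 3.24, 3.50 and 3.75. The one from 138864492 to 138971261 held 3, with folds of 3.61, 3.82 and 4.17. The remaining group stood apart in its folds. Within 11.4 kb, from 133020098 to 133031463, lay 4 peaks with consecutive numbers and folds of 2.54, 2.30, 2.18 and 2.06. These were the 4 lowest folds among the 390 peaks. Yet 3 of the 4 had scores of 45, 44 and 46, among the 10 highest of the 390, and the last had 17. The estimated expected coverage there was 16.1 to 30.5 reads, against a median of 2.23 over the 390 peaks. Of 14 peaks in the whole list with a fold under 2.5, these were 3. The other 11 lay on chromosomes 10, 17, 19, 20, 21 and Y, with expected coverages of 7.31 to 38.9 reads.

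The strongest peaks of the 8 chromosomes were both on chromosome 7. The peak at 136657236 to 136657614 reached fold 6.44 and score 90, and the one at 154540668 to 154541993 reached fold 6.29 and score 79 over a width of 1326 bp. They ranked 4th and 5th by fold in the whole list. No other peak of the 8 chromosomes had a fold above 5.01. The next on chromosome 7, at 139199531 to 139199724, had fold 4.51 and score 36. On chromosome 2, the highest scores were at 188916897 to 188917191 (fold 4.79, score 53) and 224275860 to 224276129 (fold 5.01, score 47), followed by 46 in the group of low folds. Outside that group, the next scores were at 217979612 to 217980091 (fold 4.76, score 45), 58802551 to 58802883 (fold 4.73, score 42) and 125274613 to 125275533 (fold 4.37, score 41). On chromosome 11 the highest scores were 35, at 35223417 to 35223909 (fold 4.41), 34, at 114592280 to 114592555 (fold 4.42), and 33, at 38413952 to 38414235 (fold 4.39). Of the 100 peaks with the highest fold in the list, 6 lay on the 8 chromosomes, which held 12.1% of all peaks. Of the 10 highest, 2 did, the pair on chromosome 7, so the comparison depends on the cut-off.

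The typical peak of the 8 chromosomes had a slightly higher fold than elsewhere and the same score. The median fold was 3.65 (interquartile range 3.43 to 3.92), against 3.45 (3.23 to 3.77) on the other chromosomes and 3.51 on the others without X. The median score was 21 in both. Medians of single chromosomes ran from 3.54 on chromosome 4 to 3.85 on chromosome 8. They overlap with those of the other chromosomes apart from Y, which ran from 3.26 on X to 3.76 on chromosome 20. A score of 30 or more was reached by 58 peaks (14.9%), against 17.7% elsewhere, and a q above 0.01 was found for 37.2%, against 43.3%.

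**Figure D4:**
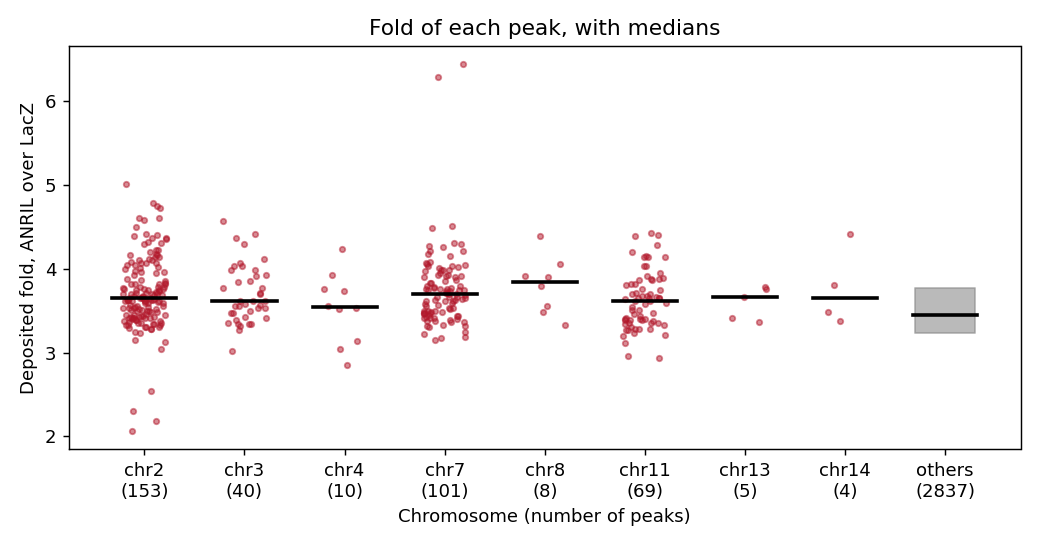
Deposited fold of each peak (vertical axis) by chromosome, with the number of peaks in brackets and a bar at each median. The grey box spans the interquartile range of the 2837 peaks on the other chromosomes, 3.23 to 3.77. The pair at 6.29 and 6.44 on chromosome 7 and the 4 peaks at 2.06 to 2.54 on chromosome 2 stand apart.

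Peaks of the 8 chromosomes were narrower at the median. Their width at the median was 288 bp (interquartile range 239 to 364 bp), against 358 bp (266 to 533 bp) on the other chromosomes. Medians of single chromosomes ran from 246 to 322 bp among the 8 and from 284 bp (chromosome 22) to 431 bp (chromosome 19) among the others apart from Y, so they overlap. Only 4 of 390 (1.03%) were 1000 bp or wider, against 189 of 2837 (6.66%) elsewhere and 5.14% elsewhere without X. Among the others apart from Y, this share ran from none on chromosomes 18, 20 and 22 to 14.8% on chromosome 19. It was 10.9% on X. The 4 among the 390 were the peaks of 1508 bp on chromosome 4, 1326 bp and 1186 bp on chromosome 7 (the latter at 122541816 to 122543001, fold 4.30) and 1284 bp on chromosome 2, in the group of low folds. The next widest was 980 bp, at 67260249 to 67261228 on chromosome 2 (fold 3.61). Chromosome 11 had none above 828 bp, a peak at 85163336 to 85164163 with a fold of 3.91. At the other end, 15 peaks (3.85%) were under 100 bp, against 2.22% elsewhere. Widths are those left after the replicates were intersected. The 390 intervals had 390 peak names, so none was split into pieces by it. On the other chromosomes 2837 intervals had 2819 names, so splits were rare there too. Chromosome 6, with 448 peaks, had none.

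Fold and score were tied closely on the 8 chromosomes. Across their 390 peaks, which are not independent replicates and share their libraries, Spearman's rho was 0.87, against 0.82 on the other chromosomes. At nearly equal score (16 to 18), the median fold was 3.38 over 111 peaks, against 3.21 over 1008 peaks elsewhere. From fold and p, the coverage expected at a peak from the control can be estimated, if MACS2's usual formulas are taken to hold. No source used here states them. The coverage is computed from fold and p, and score follows p through q. A lower expected coverage and a higher fold at equal score are thus largely the same observation, not separate results. The median expected coverage was 2.23 reads on the 8 chromosomes and 2.78 on the others, and its minimum over the list was 2.08. With nothing added to pileup and expectation in the formula, the medians were 4.17 and 4.70. Within 20% of that minimum lay 299 of the 390 peaks (76.7%), against 34.7% elsewhere. The share was 68.1% on chromosome 11, 75.2% on chromosome 2, 80.2% on chromosome 7 and 82.5% on chromosome 3. It was 5 of 5 on chromosome 13, 8 of 8 on chromosome 8, 7 of 10 on chromosome 4 and 3 of 4 on chromosome 14. The 3 exceptions on chromosome 4 were the group near its end, and that on chromosome 14 was the peak 156 kb from its end (3.17 reads). Some chromosomes outside the 8 had equally high shares, up to 81.6% on chromosome 12. Expected coverage thus had a lower median over the 8 chromosomes than over the others. On the 4 sparsest, the medians were 2.11 reads (chromosome 13), 2.12 (chromosome 8), 2.16 (chromosome 4) and 2.21 (chromosome 14). They were 2.21 on chromosome 7, 2.23 on chromosome 2, 2.25 on chromosome 3 and 2.33 on chromosome 11. This order follows that of the densities in part only. The part of expected coverage in the low counts was not tested.

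**Figure D5:**
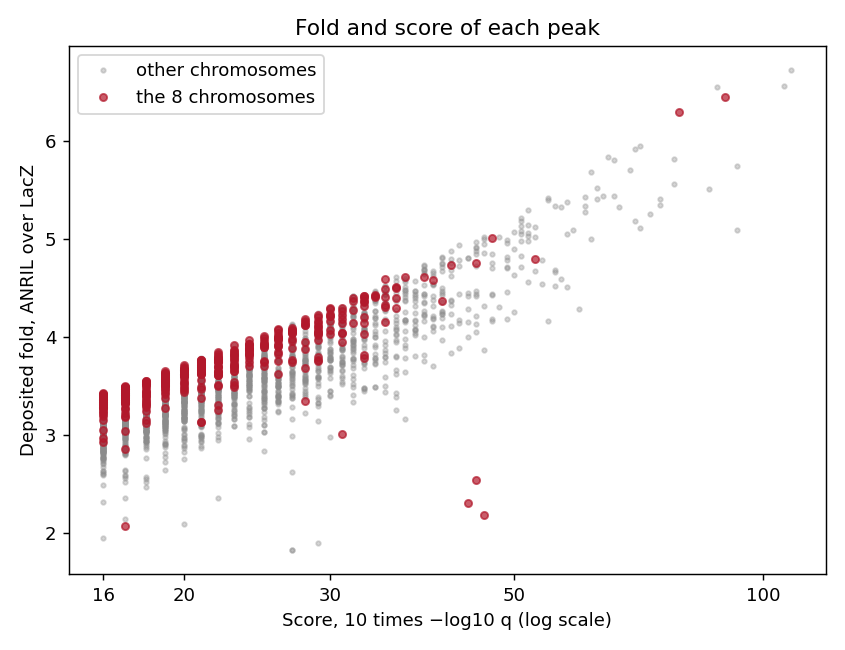
Deposited fold (vertical axis) against score (horizontal axis, log scale), with 1 point per peak, in red for the 390 peaks of the 8 chromosomes and in grey for the other 2837. Most red points lie along the upper edge of the cloud, where expected coverage is near its minimum. The 3 red points with folds of 2.18 to 2.54 at scores of 44 to 46 are those from 133020098 to 133029702 on chromosome 2.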

How the data were processed

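The data were 1 deposited list of ANRIL peaks from a series of 10 ChIRP-seq and input samples. The peak names give the contrast as ANRIL against LacZ oligos, used on 4 samples each, and do not name the 2 inputs. Reads were processed with MACS2, Bowtie2, deepTools and bedtools on hg19, per the submitters' processing notes, with versions and parameters not given in the sources used here. Per the labels, even and odd pools were combined. The name of the list gives a score filter of 15 and mentions blacklisted regions, without stating how these were used. The deposited score, fold ratio, −log10 p and −log10 q (p-value and q-value) were identified from the values and from MACS2's column order. The score equals 10 times the deposited −log10 q rounded down in every interval.

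The intervals were selected by chromosome, and positions were turned to count from 1. Chromosome lengths are the standard hg19 lengths, gaps included. Expected coverage was solved per peak from fold = (pileup + 1) / (expectation + 1) and the Poisson upper tail. Intervals are exact binomial (Clopper-Pearson). Groups were chained at 100 kb. The clustering and coverage steps were tested on simulated data. Named peaks are every peak on chromosomes with 10 or fewer, the 3 highest in score and the widest on the others, and over all 8 the 10 highest in score, 5 highest in fold, 5 widest and 5 lowest in fold. Members, lists and rules were chosen with earlier results of these data known. Overlap with genes and peak sequences, planned for an hg19 annotation, were not analysed. The work used matplotlib 3.10.9, scipy 1.17.1, pandas 2.3.3 and numpy 2.4.6 under Python 3.11.15.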

Additional observations from a re-analysis of the deposited data

How the results depend on the processing

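Of 81 values under alternative settings, 59 stayed inside their interval or within 1.5 times the count, 22 moved and 0 reversed. For medians the interval is the exact order-statistic one. Leaving out folds under 2.5 moved none. Merging pieces of a peak and merging intervals within 1 kb moved none either, but neither could change the peaks described. Each of these has its own name, and the smallest distance between neighbours was 1.27 kb. The 59 thus include values that could not move. Leaving out each of the 8 chromosomes was run for the median fold, score and width, and moved none of these. With scores of at least 21, 216 peaks remained (median fold 3.88, score 26), the fold difference from the others was 0.11 and the width difference −97.0 bp, against 0.20 and −70.0 bp. With scores of at least 30, 58 remained (10.4% of the list, 0.248 times their share, fold 4.30, score 33, width 307 bp), the differences were 0.090 and −120.0 bp, and 1 group was left. Without chromosome X the share was 15.8%, 0.358 times, and the differences 0.14 and −58.0 bp. Without chromosomes 2 and 7 the median score was 20. Chaining at 50 kb gave 3 groups and at 500 kb 23. With nothing added in the fold formula, the median expected coverage was 4.17, against 4.70 on the other chromosomes. Of 48 values for single chromosomes, 43 stayed in their interval and 8 were at 0.61 or more, all of chromosomes 2 and 7. With scores of at least 21, these chromosomes stood at 0.675 and 0.715 times their share. Chromosome 7 also passed 0.61 with either merging and without folds under 2.5 (0.611 to 0.612). The settings without chromosomes 2 and 7, without X for the differences, and the first 20 Mb of chromosome 3 (57.5%) were chosen after seeing the data. Leaving out a replicate needs values per replicate, which the list does not give. No paired analysis was possible because each peak has 1 set of values, with no value per replicate. The depth at each peak is not given, and expected coverage was only estimated, by assumed formulas. Few peaks therefore cannot be told apart from low sensitivity.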
